A study of Mus musculus with 6 samples.

Results

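Jun, Junb, Jund, Fos, Fosb, Fosl2 and Batf are 7 genes of the AP-1 family of transcription factors, and they are described here in single regulatory T (Treg) cells of the mouse spleen. They were taken by name from the deposited table of raw counts, which holds 14098 genes in 10685 cells, and 7 of 7 were in it. The count is of unique molecular identifiers (UMIs), in which each captured mRNA molecule is counted once. Levels are given as counts per 1000000 UMIs of the cells concerned (CPM). Cells were grouped by UMIs of marker genes that include none of the 7, and by the number, from 1 to 6, that ends each cell barcode (the barcode set).

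The series holds 3 samples of Bach2+/+ Foxp3EGFP-Cre-ERT2 mice (WT) and 3 of Bach2fl/fl Foxp3EGFP-Cre-ERT2 mice (cKO), all C57BL/6, aged 18 to 21 weeks and given tamoxifen. Mice of both groups carry EGFP and a tamoxifen-dependent Cre recombinase at Foxp3, the gene of the factor that defines Treg cells, so that Cre acts in Foxp3-expressing cells and only the cKO mice have a Bach2 allele it can delete. EGFP+ cells were sorted from spleen and sequenced from the 3′ ends of their mRNAs with the droplet method of 10x Genomics. No column name ties a barcode set to a sample, so cKO and WT were not compared, and the values below are over cells of both genotypes together.

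AP-1 factors bind DNA as pairs joined through a leucine zipper. JUN proteins pair with each other or with FOS and BATF proteins, while FOS proteins need a JUN partner and BATF, which lacks the activation domains of FOS, acts with JUN proteins and with IRF4 or IRF8. Fos, Fosb, Jun and Junb are immediate early genes, whose mRNAs appear soon after a stimulus such as engagement of the T cell receptor (TCR) and decay quickly. BACH2, the factor deleted in the cKO mice, belongs to a related zipper family and is known to occupy AP-1 sites in lymphocytes, and BATF and JUNB are known from effector Treg cells.

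The genes lie on 5 chromosomes in mm10 (GENCODE vM21 on GRCm38). Fos (ENSMUSG00000021250.13, chr12:85473890-85477273, plus strand, 4 exons) and Batf (ENSMUSG00000034266.6, chr12:85686669-85709087, plus strand, 3 exons) share chromosome 12, with 209396 bases between them that include Jdp2, the gene of a further AP-1 partner. Junb (ENSMUSG00000052837.6, chr8:84974484-84978718, minus strand) and Jund (ENSMUSG00000071076.6, chr8:70698949-70700616, plus strand) share chromosome 8, 14273868 bases apart. Jun (ENSMUSG00000052684.4) is a gene of 1 exon at chr4:95049034-95052222 on the minus strand. Fosb (ENSMUSG00000003545.3) lies at chr7:19302696-19310051 on the minus strand and Fosl2 (ENSMUSG00000029135.10) at chr5:32135801-32157842 on the plus strand. Junb, Jun and Jund each overlap 1 gene on the other strand (Prdx2, Junos and Gm11175), and whether counting used the strand is not given in the sources used here.

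The bases just before the annotated start are shown for 4 members because Batf and Junb differed most between cell states and Jun and Fos did not follow them. The sequences are from RefSeq (GRCm38.p6), on the gene's strand, and capitals mark TGACG, the shorter core of a cAMP response element, or the spaced AP-1 and CRE-like motif TGANNTCA. Batf is shown over chr12:85686470-85686668 (199 bases, ending before the earlier GENCODE start), Junb over chr8:84978749-84978998, Jun over chr4:95052223-95052472 and Fos over chr12:85473640-85473889.
Batf: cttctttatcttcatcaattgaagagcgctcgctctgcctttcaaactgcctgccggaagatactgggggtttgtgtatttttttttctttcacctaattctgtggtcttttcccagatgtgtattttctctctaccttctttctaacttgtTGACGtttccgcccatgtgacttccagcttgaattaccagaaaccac
Junb: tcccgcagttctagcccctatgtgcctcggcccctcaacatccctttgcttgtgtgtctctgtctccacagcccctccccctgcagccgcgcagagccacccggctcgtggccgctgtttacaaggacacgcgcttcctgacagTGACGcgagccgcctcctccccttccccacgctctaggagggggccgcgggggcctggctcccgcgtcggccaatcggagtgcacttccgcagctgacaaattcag
Jun: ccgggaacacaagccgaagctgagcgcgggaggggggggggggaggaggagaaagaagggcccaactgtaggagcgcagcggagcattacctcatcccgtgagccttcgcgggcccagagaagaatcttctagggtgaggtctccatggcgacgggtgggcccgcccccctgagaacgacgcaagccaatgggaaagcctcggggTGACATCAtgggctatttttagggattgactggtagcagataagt
Fos: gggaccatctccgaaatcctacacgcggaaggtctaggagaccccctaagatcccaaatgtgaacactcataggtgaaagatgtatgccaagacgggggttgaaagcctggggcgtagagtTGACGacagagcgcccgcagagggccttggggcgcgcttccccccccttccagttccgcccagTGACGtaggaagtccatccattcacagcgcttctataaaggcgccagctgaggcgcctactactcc
Batf and Junb each hold 1 TGACG, at positions -98 and -106 from the RefSeq start, and Fos holds 2, at -129 and -66. Jun holds TGANNTCA at -45 and no TGACG. The canonical AP-1 site TGANTCA was found in none of the 7 windows searched (199 bases for Batf, 244 for Fosb and 250 for the others), of which those of Jund and Fosl2 rest on RefSeq starts that lie 1210 and 671 bases from the GENCODE ones. Searched on both strands, TGACG occurred in 17.8%, TGANNTCA in 11.9% and TGANTCA in 6.75% of all 32851 RefSeq windows of 250 bases before a start. A match is a description of letters in these windows and not a measured site.

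Of the 10685 cells, 10680 passed the filters (at least 200 genes and under 10% mitochondrial UMIs), and 10481 were kept as Treg cells after cells with B cell, myeloid or erythroid markers were set aside. The 6 sets held 1641 to 1902 cells and 3998172 to 4786590 UMIs each, with medians of 2000 to 2229 UMIs per cell. The Treg markers (Foxp3, Ikzf2, Il2ra, Ctla4, Tnfrsf18 and Izumo1r) were all present in the kept cells, at 2608 to 3192 CPM summed, and 5 of 6 T cell markers were in the table. Foxp3 itself stood at 21.3 CPM, with 19.5 to 22.6 CPM in the sets. Set 6 stood apart in the heat shock gene Hspa1a, at 1.22 CPM against 10.3 to 29.6 CPM in the others. The whole barcode of 126 cells (63 barcodes) occurred in more than 1 set.

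Jund and Junb made up most of the AP-1 mRNA of these Treg cells. Jund, often described as the JUN gene of unstimulated cells, was at 604 CPM (95% Poisson interval 594 to 613), with 518 CPM in the lowest set, 594 in the median and 679 in the highest. Junb was at 443 CPM (435 to 451), with sets from 367 through 432 to 519 CPM. Jund was above Junb in 6 of 6 sets, although the highest Junb set and the lowest Jund set met. Batf was at 129 CPM (124 to 133; sets 118, 129 and 143 CPM as lowest, median and highest), and Jun was at 120 CPM (116 to 124; sets 83.5, 124 and 142 CPM). These neighbours in the order did not differ beyond their spread, since Batf was the higher in 3 of 6 sets.

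The FOS genes were lower than the JUN genes and Batf. Fos was at 48.2 CPM (45.5 to 51.0; sets 32.3, 49.5 and 64.6 CPM), below Jun in 6 of 6 sets. Fosb was at 7.34 CPM from 182 UMIs, and Fosl2, which codes for FRA2, was at 3.35 CPM from 83 UMIs. Fosb was the higher of these last 2 genes in 5 of 6 sets and their ranges overlapped. Intervals on CPM cover counting error only. UMIs were counted at transcript ends, so levels were not divided by length, and an order between genes also rests on how well each mRNA is captured.

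Fos, Fosb and Jun varied more between the barcode sets than Batf did. The highest set over the lowest was 4.09-fold for Fosb, 2.0-fold for Fos and 1.70-fold for Jun, against 1.41-fold for Junb, 1.31-fold for Jund and 1.21-fold for Batf. Fosl2 had 2.15-fold on 9 to 23 UMIs per set with overlapping intervals, and 8.95% of the 9298 genes with as many UMIs or more had as large a ratio. Among the 2427 genes with as many UMIs as Fos or more, 0.824% had as large a ratio, and for Jun it was 2.19% of 961 genes. For Batf it was 55.5% of 899 genes, so that Batf was as even across the sets as the middle of genes with as many UMIs or more. The genes compared were not matched for abundance. Nearly all had more UMIs than the member, and so less counting error. Set 6 was the lowest for Jun, Fos and Fosb, but not for Junb, Jund or Batf. Without set 6 the ratios were 1.23-fold for Jun, 1.73-fold for Fos and 2.05-fold for Fosb, so the spread of these 3 genes rests in part on that set. It was also the set with little Hspa1a, and the part of that difference in the AP-1 values was not tested. Set 4 was the highest for Junb, Fos, Fosb and Batf. Because the sets carry no sample names, these ranges hold whatever differs between the 6 sets, and whether genotype is part of that is not known.

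**Figure D1:**
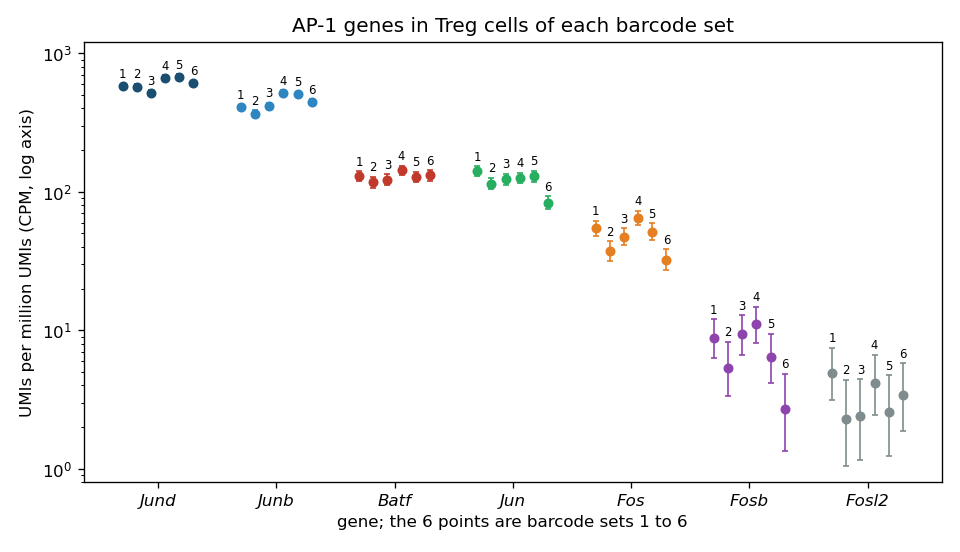
CPM (log axis) of the 7 AP-1 genes in the Treg cells of each barcode set, with 95% Poisson intervals; the numbers over the points name the sets. Batf lies between 118 and 143 CPM in the 6 sets, while Fosb ranges from 2.69 CPM in set 6 to 11 CPM in set 4.

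Few cells carried a UMI of most members at a shared depth. With each cell thinned to 1000 UMIs, a Jund UMI was found in 42.9% of 10177 Treg cells (exact binomial 95% interval 41.9 to 43.8), a Junb UMI in 34.4% (33.4 to 35.3), a Jun UMI in 11.8% and a Batf UMI in 10.8%. Fos had one in 5.13%, Fosb in 0.816% and Fosl2 in 0.364% of cells. At full depth, with a median of 2088 UMIs per cell, the shares were 67.4% for Jund, 55.3% for Junb, 21.8% for Jun, 21.0% for Batf, 9.73% for Fos, 1.71% for Fosb and 0.782% for Fosl2.

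The 130 cells with B cell markers that reached 1000 UMIs (median depth at full depth 2081 UMIs, near that of the Treg cells) gave the comparison with another cell type. A UMI of Jund was found in 45.4% of them, of Junb in 19.2%, of Jun in 9.23%, of Fos in 9.23% and of Batf in 6.15%. Junb was thus in more Treg cells than B-marked cells, beyond both intervals, while the intervals of the other 4 genes overlapped or met between the groups. These cells are no clean background: B cells express AP-1 genes themselves, and the T cell markers in them summed to 2328 CPM, against 4283 CPM in the Treg cells. The share of resting Treg cells with a Batf UMI, 5.82%, was at the level of the B-marked cells, so no Batf expression in resting cells is read from it.

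UMIs of Batf, Junb, Jund, Jun and Fos were all less evenly spread over cells than those of most genes, Batf and Junb most of all. The variance of thinned UMIs over their mean was 1.35 for Batf and 1.32 for Junb, against 1.20 for Jund, 1.13 for Jun, 1.09 for Fos and a median of 1.02 over 2418 genes with enough UMIs. Of those genes, 2.77% had as high a ratio as Batf, 2.94% as Junb, 5.58% as Jund, 8.85% as Jun and 12.3% as Fos. The genes were not matched to the members in mean UMIs, on which this ratio can depend.

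Cell states were cut from marker UMIs in the thinned cells, so each is a range of a score and not a cell type. A cell was high in a list when it reached a number of marker UMIs that at most 25% of cells reach, and cells high in exactly 1 list formed the states. Resting cells (1495) were high for genes such as Ccr7, Lef1 and Tcf7, effector cells (1061) for S100a4, Lgals1, Klrg1 and the like, TCR-stimulated cells (800) for Cd83, Tnfrsf9, Nr4a1, Irf4 and the like, and Ccl5 cells (662) for Ccl5, Maf, Icos and the like. A further 1464 cells were high in several lists and 4695 in none. The cuts were 3, 4, 3 and 2 UMIs in that order, and 2644, 1819, 1926 and 3117 cells lay at the cut or 1 UMI below it.

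A gene was called when its pooled CPM differed at least 1.5-fold between 2 states and the direction was the same in 6 of 6 sets, among genes with at least 50 UMIs over both states. The sets were pooled into 1 table with no map to samples, so no p-value is given, and the intervals on ratios (exact conditional binomial) cover counting error only. Whether a difference is larger than the spread between barcode sets is read from the 6 set values. The shares of all genes given beside the calls and directions were not matched for abundance. They take in genes down to the minimum of 50 UMIs, and so are no like background for abundant genes such as Batf, Junb and Jund.

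Batf was the member that differed most between TCR-stimulated and resting cells. In resting cells it was at 56.0 CPM (48.8 to 63.9), with 43.0 CPM in the lowest set, 57.5 in the median and 70.3 in the highest. In TCR-stimulated cells it was at 299 CPM (276 to 324), with 192, 311 and 371 CPM. Every TCR-stimulated set was above every resting set. The ratio was 5.35-fold, or 2.42 on the log2 scale (2.19 to 2.65), with 1.70 to 3.09 in the sets, and ranked 39 of 7262 genes tested. The 2 sets with the smallest ratios, set 5 at 1.70 and set 4 at 1.85, were also those with the lowest TCR-stimulated levels, 192 and 257 CPM.

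Junb, whose protein is a known partner of BATF in T cells, followed Batf with a smaller ratio. It stood at 293 CPM in resting cells (sets 258, 301 and 356 CPM as lowest, median and highest) and at 639 CPM in TCR-stimulated cells (543, 653 and 695 CPM), again without overlap of the sets. The ratio was 2.18-fold, a log2 ratio of 1.12 (1.0 to 1.24; sets 0.84 to 1.36). Batf and Junb were the 2 members called higher of 5 tested, where 11% of all 7262 genes tested were called higher (800 higher and 230 lower, or 433 and 412 relative to the median gene, by which Batf and Junb were still called). None was called lower, against 3.17% of all genes, and Fosb and Fosl2 had too few UMIs to be tested.

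Prdx2, the peroxiredoxin gene that runs into the 3′ end of a longer non-coding Junb transcript from the other strand, was at 170 CPM in resting and 228 CPM in TCR-stimulated cells. Its log2 ratio was 0.42, against 1.12 for Junb. The antisense Junos had 43 UMIs and Gm11175 had 221 UMIs in all Treg cells, against 2975 for Jun and 14959 for Jund.

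Jund was higher in TCR-stimulated cells in 6 of 6 sets by less than the call requires. It was at 527 CPM in resting cells (sets 436, 547 and 635 CPM) and at 708 CPM in TCR-stimulated cells (586, 702 and 900 CPM), and the 2 ranges overlapped. The log2 ratio was 0.42 (0.33 to 0.52), and 18.9% of all genes were higher in 6 of 6 sets in this comparison. The median gene itself stood at 0.19, which leaves 0.23 for Jund relative to it.

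Jun went the other way, without passing the call. It was at 125 CPM in resting cells (sets 78.1, 121 and 166 CPM) and 81.1 CPM in TCR-stimulated cells (46.8, 85.0 and 123 CPM), with overlapping ranges. The log2 ratio was -0.62 (-0.88 to -0.36), lower in 5 of 6 sets. Set 3 was the exception, at 0.07. Jun was called lower without set 3, at -0.78, and relative to the median gene, at -0.81. It was also called lower with ribosomal protein and mitochondrial genes left out of the totals, at -0.78. Without the cells whose barcode occurs in more than 1 set it was called lower at -0.65, and set 3 no longer lay above 0.

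Fos, a classic immediate early gene, did not separate these states. It was at 47.5 CPM in resting cells (sets 29.3, 50.5 and 64.1 CPM) and 44.7 CPM in TCR-stimulated cells (24.4, 51.8 and 57.8 CPM). The log2 ratio was -0.09 with an interval of -0.46 to 0.28, so a difference of 1.5-fold either way lay outside the interval. Fosb was at 4.62 and 5.90 CPM (18 and 12 UMIs) and Fosl2 at 3.59 and 4.42 CPM (14 and 9 UMIs), values at which a difference was not detectable at this depth.

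**Figure D2:**
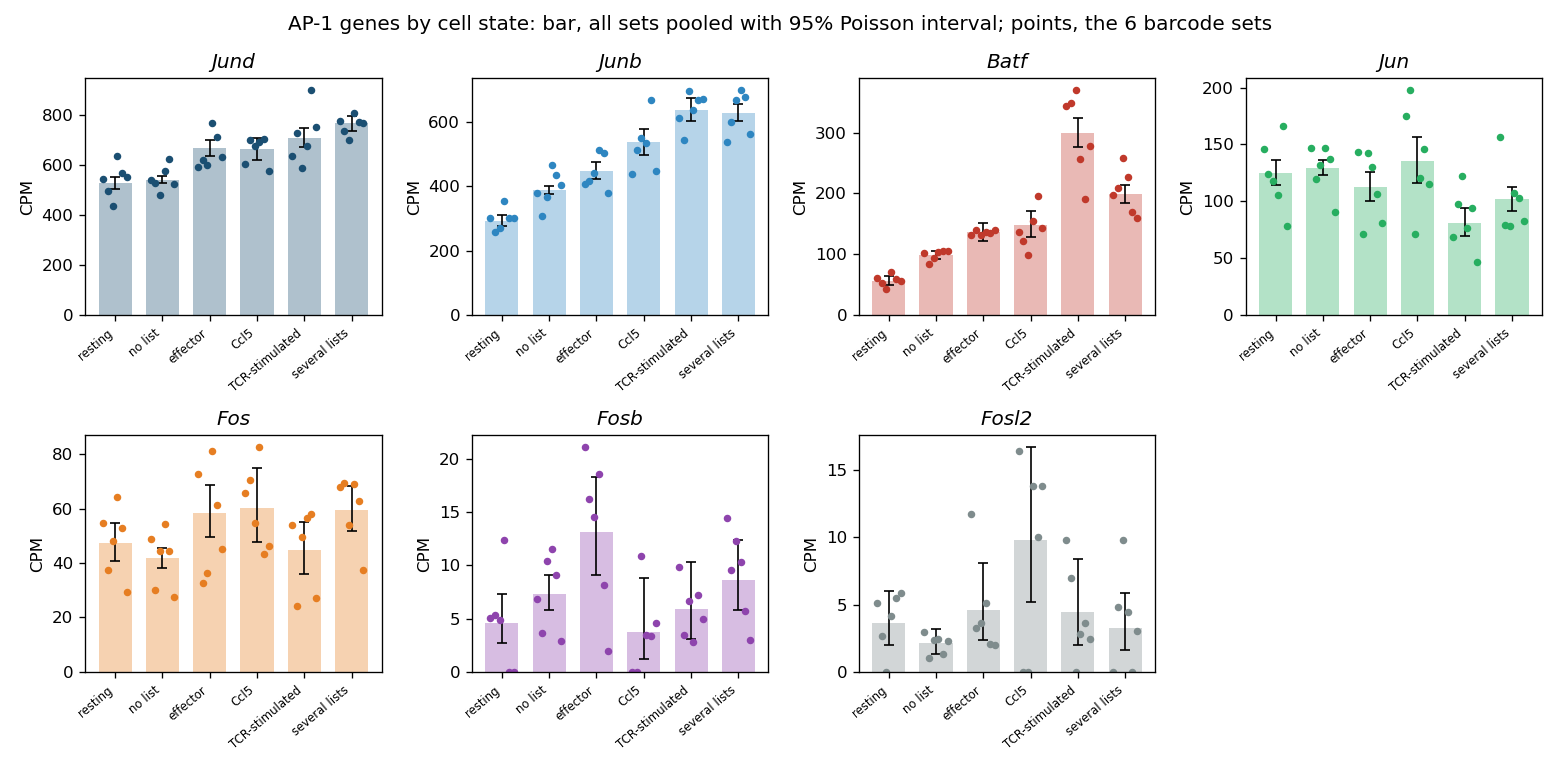
CPM of each AP-1 gene in the cell states; bars pool all sets with 95% Poisson intervals and points are the 6 barcode sets. Batf runs from 56.0 CPM in resting to 299 CPM in TCR-stimulated cells, while the points of Jun and Fos overlap between all states. Within every set, however, Jun was lower in TCR-stimulated cells (81.1 CPM pooled) than in cells high in no list (129 CPM), a pair not among the comparisons made.

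Against resting cells, effector cells had more Batf, by a smaller ratio than TCR-stimulated cells. Batf was at 136 CPM in effector cells, and its 6 sets lay close together, from 131 through 136 to 140 CPM, all above the resting sets. The log2 ratio was 1.28 (1.03 to 1.53; sets 0.95 to 1.61). Junb was at 449 CPM (sets 380, 429 and 513 CPM), also above every resting set, with a log2 ratio of 0.61 (0.49 to 0.73; sets 0.34 to 0.74), just past the 1.5-fold line. Relative to the median gene, which stood at 0.21, Junb was at 0.40, and with ribosomal protein and mitochondrial genes left out of the totals it was also at 0.40, so that its call ended. Without set 5 it was at 0.58, also short of the call.

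Fosb was the FOS gene with the most distinct level in effector cells. It was at 13.1 CPM there (9.07 to 18.3; sets 1.97, 15.4 and 21.1 CPM) and at 4.62 CPM in resting cells (2.74 to 7.30; sets 0, 5.0 and 12.4 CPM), and the set ranges overlapped. The log2 ratio was 1.5 (0.64 to 2.41) and its sign was the same in 6 of 6 sets, so it was called, on 34 and 18 UMIs. In resting cells, set 5 and set 6 held no Fosb UMI. Fosb reached the minimum of 50 UMIs only with the effector cells, where it was high, so its call is not independent of that level. It was not tested against resting cells in the TCR-stimulated and Ccl5 states. The minimum of 50 UMIs left it untested in 9 of 18 alternative analyses, and its ratio stayed above 0 in 18 of 18, from 0.72 to 2.69. Batf, Junb and Fosb were thus 3 members called higher of 6 tested, Fosb only just past the minimum of UMIs. Of all 7538 genes tested, 8.82% were called higher (665 higher and 115 lower, or 326 and 255 relative to the median gene). No member was called lower, where 1.53% of genes were.

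Jund had a log2 ratio of 0.34 (0.24 to 0.43) between effector and resting cells, higher in 6 of 6 sets, as were 17.3% of all genes. Jun was at 112 CPM in effector cells, a log2 ratio of -0.15 (-0.36 to 0.06), and Fos at 58.6 CPM, a log2 ratio of 0.30 (-0.02 to 0.62), neither with 1 direction in the sets. Fosl2 was at 4.62 CPM from 12 UMIs.

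Ccl5 cells, named after the chemokine gene that leads their list, resembled effector cells in Batf and lay higher in Junb. Batf was at 148 CPM (sets 98.2, 140 and 196 CPM), a log2 ratio to resting cells of 1.40 (1.12 to 1.69; sets 1.14 to 1.74). Junb was at 537 CPM (sets 438, 523 and 669 CPM), a log2 ratio of 0.87 (0.73 to 1.0; sets 0.54 to 1.15). Every Ccl5 set was above every resting set in both genes. They were the 2 members called higher of 5 tested, where 8.05% of 6920 genes were (557 higher and 129 lower, or 290 and 247 relative to the median gene, which stood at 0.19). None was called lower, where 1.86% were.

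The remaining members differed less in Ccl5 cells. Jund was at 661 CPM, a log2 ratio of 0.33 (0.21 to 0.44) with 6 of 6 sets higher, as for 13.7% of all genes. Jun was at 135 CPM, its highest level of the 4 states, with a log2 ratio of 0.12 (-0.14 to 0.37), and Fos was at 60.2 CPM, with 0.34 (-0.06 to 0.73). Fosl2 reached 9.78 CPM (5.20 to 16.7) against 3.59 CPM in resting cells, on 13 and 14 UMIs, too few to be tested. It was listed at 0 in 2 of the 6 Ccl5 sets.

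The direct comparison of TCR-stimulated with effector cells gave a difference in Batf itself. Its log2 ratio was 1.14 (0.95 to 1.33; sets 0.51 to 1.49), higher in 6 of 6 sets and called, where 4.89% of 6912 genes were called higher and 5.73% lower. Junb was higher in 6 of 6 sets at 0.51 (0.39 to 0.62), under 1.5-fold, where 9.17% of genes were higher in 6 of 6 sets. Fos had a log2 ratio of -0.39 (-0.78 to 0.00) and Jun one of -0.47 (-0.76 to -0.19), each lower in 5 of 6 sets and not called. The set ranges of Jund overlapped, with a ratio of 0.09 (-0.01 to 0.19). Fosb was at 5.90 CPM against 13.1 CPM, on 12 and 34 UMIs, and was not tested.

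**Figure D3:**
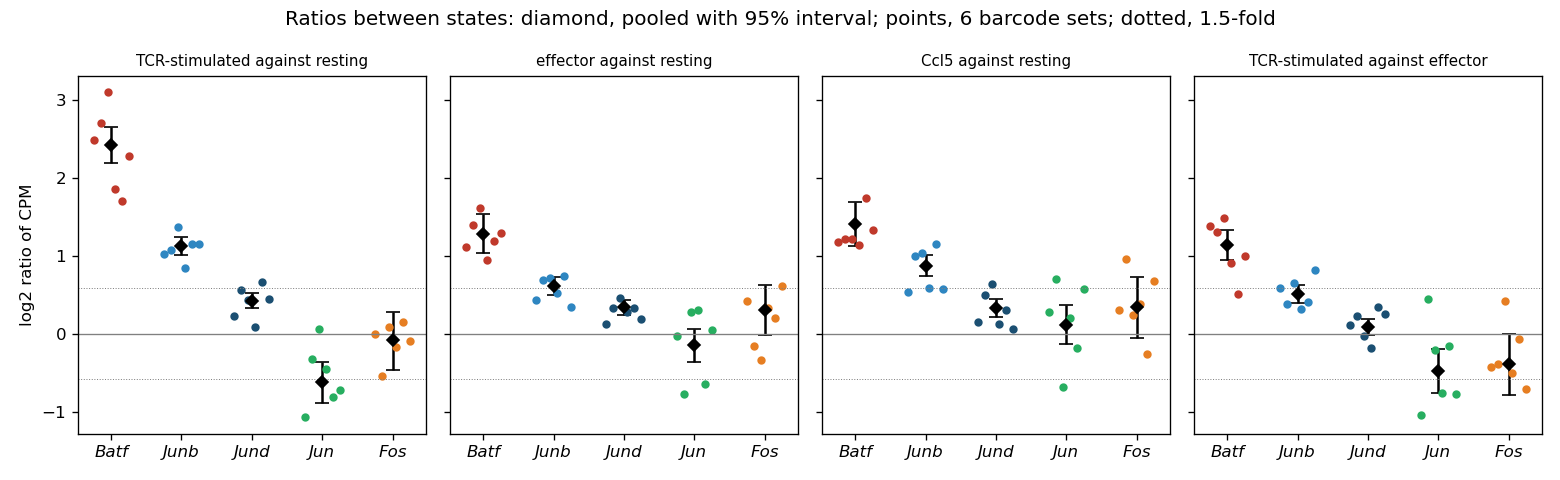
Log2 ratios of CPM between states for the 5 members with the most UMIs; diamonds are pooled ratios with 95% intervals, points the 6 barcode sets, dotted lines 1.5-fold. All 6 points of Batf and Junb lie above 0 in each of the 4 comparisons, and those of Jun and Fos lie on both sides of 0 in all 4.

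The comparisons with resting cells share those cells, so their ratios are set side by side and not correlated. In order of level, Batf ran from TCR-stimulated cells through cells high in several lists (199 CPM), Ccl5 cells, effector cells and cells high in no list (98.5 CPM) to resting cells. Ccl5 and effector cells did not differ beyond their spread in Batf, with 4 of 6 sets in this order, while the sets of effector cells, cells in no list and resting cells did not overlap from one to the next. Junb ran from TCR-stimulated cells and cells high in several lists (628 CPM), whose order held in 3 of 6 sets, through Ccl5, effector and no-list cells (389 CPM) to resting cells. Neighbouring states of Fos differed in 3 or 4 of 6 sets in the given direction, which leaves neighbours without an order. States further apart could differ. Fos was at 59.6 CPM (51.6 to 68.5) in cells high in several lists and at 41.7 CPM (38.0 to 45.6) in cells high in none. Every set had this direction, although the set ranges overlapped (37.5 to 69.5 and 27.4 to 54.5 CPM).

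Markers of other cells moved with the states, and their part in the AP-1 differences was not tested except as given here. The CD8 T and NK list, with 4 of 5 markers in the table, summed to 48.3 CPM in resting cells (sets 30.7 to 84.1), 127 CPM in TCR-stimulated cells (68.7 to 231), 115 CPM in effector cells (42.3 to 184) and 107 CPM in Ccl5 cells (54.8 to 153). UMIs of 4 of the 4 were found in effector cells and of 3 in the other 3 states. B cell markers summed to 36.7 CPM in resting (sets 27 to 47.6; 5 of 6 with a UMI), 62.0 in effector (48.8 to 71.5), 53.4 in Ccl5 (49.1 to 59.9) and 45.7 CPM in TCR-stimulated cells (36.8 to 51.8). Myeloid markers summed to 26.3 to 34.9 CPM in the 4 states. With the deepest 2% of cells left out, and likewise every cell in which Cd79a, Hbb-bs, Lyz2 or Cd8a was detected, the log2 ratio of TCR-stimulated to resting cells was 2.47 for Batf and 1.21 for Junb, that of effector cells 1.23 and 0.71, and that of Ccl5 cells 1.34 and 0.85. For TCR-stimulated cells, without the cells whose barcode occurs in more than 1 set it was 2.42 and 1.12, and without set 6 it was 2.45 and 1.11.

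Along the number of TCR-stimulated marker UMIs in the thinned cells, Batf and Junb stood higher at each step. Batf was at 81.7 CPM in the 4450 cells with none, 106 with 1, 154 with 2, 197 with 3, 242 with 4 and 427 CPM (393 to 463) in the 543 cells with 5 or more. Junb was at 360, 418, 486, 548, 633 and 890 CPM at the same steps, and Jund at 557, 578, 631, 684, 746 and 859 CPM. In the cells with 5 or more marker UMIs Junb was the highest of the members, though its interval (840 to 941 CPM) overlapped that of Jund (810.5 to 910 CPM). The rise was not particular to this list. Along Ccl5 markers Batf was at 110 CPM with none, 233 with 4 and 147 with 5 or more, and Junb at 389, 752 and 632 CPM. Along effector markers Batf was at 106 CPM with none and 158 with 5 or more, and Junb at 355 and 505 CPM. Such steps take in cells high in several lists.

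Jun was lower in the cells with the most TCR-stimulated marker UMIs than in those with none. It was at 124, 130 and 123 CPM in cells with none, 1 and 2, and at 95.9, 68.5 and 75.6 CPM in cells with 3, 4 and 5 or more. The set ranges overlapped (85.3 to 150.5 CPM with none, 48.3 to 111 CPM with 5 or more), while within sets Jun was below its level at 0 marker UMIs in 5 of 6 sets at 3, and in 6 of 6 at 4 and at 5 or more. Fos moved between 37.0 and 52.8 CPM with overlapping intervals throughout. The median depth of the cells was 1987 to 2190 UMIs over the TCR-stimulated steps. Lower Jun was not particular to this list. Along effector markers it was at 123 CPM (114 to 131) with none, 129 with 4 and 97.6 CPM (87.7 to 108) with 5 or more. Along Ccl5 markers it was at 120 CPM with none, 64.8 with 4 (on 20 UMIs) and 100 CPM (75.4 to 131) with 5 or more.

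**Figure D4:**
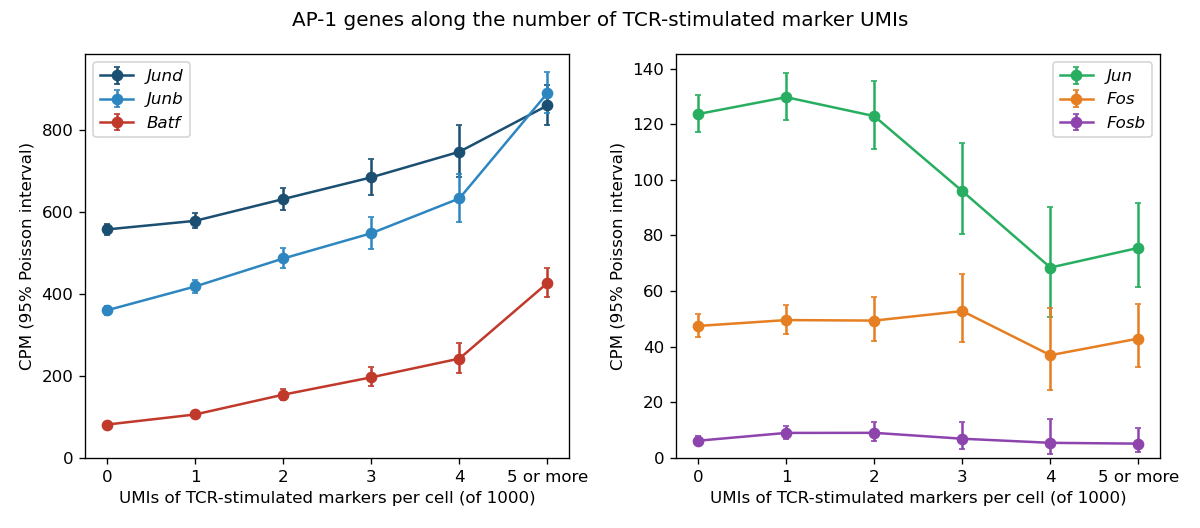
CPM of AP-1 genes (95% Poisson intervals) in Treg cells grouped by their UMIs of TCR-stimulated markers out of 1000 UMIs. Batf goes from 81.7 to 427 CPM and Junb from 360 to 890 CPM, while Jun goes from 124 to 75.6 CPM.

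The make-up of the AP-1 mRNA differed accordingly. In resting cells Jund made up 49.9% (exact binomial interval 48.3 to 51.4) of the 4118 UMIs of the 7 genes, Junb 27.8%, Jun 11.8% and Batf 5.29% (4.63 to 6.02). In TCR-stimulated cells Jund made up 39.7% of 3624 UMIs, Junb 35.8%, Batf 16.8% (15.6 to 18.1) and Jun 4.55% (3.90 to 5.28). Batf was thus below Jun in resting cells and above it in TCR-stimulated cells. Effector cells lay between, with 9.45% Batf and 7.81% Jun. Fos made up 2.51% to 4.49% in the 4 states.

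**Figure D5:**
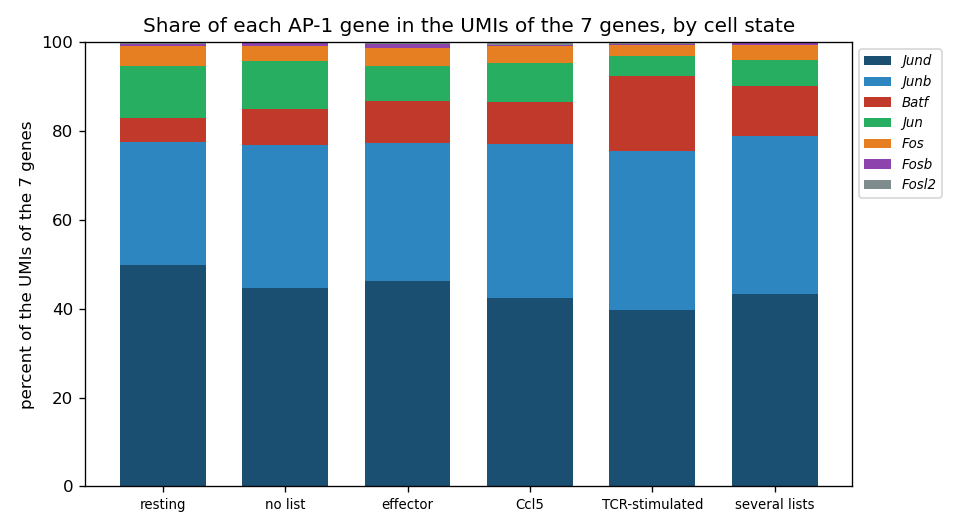
Percent of the UMIs of the 7 AP-1 genes that each gene contributes, by cell state. The Batf segment is 5.29% in resting and 16.8% in TCR-stimulated cells, and the Jun segment 11.8% and 4.55%.

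How often members were found in the same cells is described here without a test, because single-cell counts are sparse. A Junb UMI was found in 41.9% of the 1098 thinned cells with a Batf UMI and in 33.5% of those without, a ratio of 1.25 in the same direction in 6 of 6 sets. A Jun UMI was found in 14.4% of the 522 cells with a Fos UMI and in 11.7% of those without, a ratio of 1.23 and higher in 5 of 6 sets, with overlapping intervals. Other pairs had similar or smaller ratios in 6 of 6 sets. A Jund UMI was found in 45.9% of cells with and 41.3% of cells without a Junb UMI, with separate intervals, and in 47.1% of cells with and 42.7% without a Fos UMI. A Junb UMI was found in 37.1% of cells with and 34.0% without a Jun UMI. A Batf UMI was found in 9.48% of cells with and 11% of cells without a Jun UMI, and the intervals overlapped. Within TCR-stimulated cells alone, 46.4% of cells with and 44.8% of cells without a Batf UMI had a Junb UMI, with overlapping intervals and 3 of 6 sets higher. Within cells high in no list it was 38.5% and 31.8%, in 5 of 6 sets. Within resting cells it was 19.5% and 23.3%, the other way, with overlapping intervals and 1 of 6 sets higher.

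Over 5 groups of cells (the 4 states and the cells high in none) in 6 sets, each set centred on its own mean, Batf and Junb had a Pearson r of 0.92 over 30 points. The points share their cells' total UMIs between genes, and the states repeat in each set. Among 2797 genes, the 3 most like Batf were Cd82 (0.95), Rilpl2 (0.95) and Srgn (0.94), with Junb at rank 9. Those most like Junb were Gimap5 (0.97), Bcl2a1b (0.95) and Itm2c (0.95), with Batf at rank 8. Jund was most like Gemin7 (0.83), Mdh1 (0.83) and Cd2 (0.83). Jun was most like Rnf114 (0.78), Irf2bpl (0.76) and Parp14 (0.69), and had an r of -0.41 with Batf and -0.39 with Junb. Fos was most like Anapc16 (0.70), Mrps24 (0.67) and Itpkb (0.65), and its r with Jun was 0.33.

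Interferon-high and cycling cells were examined as rarer states. In the 1176 interferon-high cells no member was called, where 1.54% of 10023 genes were called higher and 0.339% lower. The pooled log2 ratios of Jun, Junb, Jund and Batf lay between -0.05 and -0.01. Their sets lay on both sides of 0, from -0.65 to 0.33 for Jun, -0.37 to 0.38 for Junb, -0.16 to 0.16 for Jund and -0.78 to 0.34 for Batf. In the 54 cycling cells, which had a median of 7878 UMIs, Jun was at 40.9 CPM against 121 CPM in other Treg cells and Junb at 235 against 446 CPM. Their log2 ratios, -1.56 (-2.28 to -0.93) and -0.92 (-1.20 to -0.66), were lower in 6 of 6 sets and called, where 2.4% of genes were called lower and 13% higher (241 and 1303 genes, or 630 and 777 relative to the median gene). The cycling cells held 20 UMIs of Jun, with 0 in set 2 and set 5, and 115 of Junb, and as few as 4 of these cells were in a set. Without the deepest cells and those with UMIs of other lineages only 8 cycling cells were left, neither gene was called, and Batf (0.73) and Fos (1.05) were called higher. Batf was at 123 against 129 CPM and Jund at 632 against 602 CPM.

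The partners and regulators of AP-1 were followed through lists of genes, counted over TCR-stimulated against resting cells. Of 12 tested partners, 3 were called higher and none lower, with a median log2 ratio of -0.05 beside 0.19 over all genes, of which 11% were called higher and 3.17% lower. They were Irf8 (73.3 against 15.4 CPM, log2 ratio 2.25, 1.81 to 2.71), which codes for a DNA-binding partner of BATF, Cebpb (1.26) and the calcium-dependent factor gene Nfatc1 (0.94). Irf4, the other partner of this kind, is among the state's markers and was not counted. Irf8 was also higher than in effector cells, at 2.15 (1.65 to 2.67), while it was not among the genes called in effector or Ccl5 cells against resting.

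Bach2 was lower in each of the 3 activated states. It was at 44.9 CPM in resting cells (sets 24.1, 48.6 and 66.2 CPM), 27 in TCR-stimulated, 22.6 in Ccl5 and 15.8 CPM in effector cells, with log2 ratios to resting of -0.73 (-1.20 to -0.29), -0.99 (-1.60 to -0.43) and -1.51 (-2.04 to -1.01), all called. It was the 1 gene called lower of 5 tested BACH, NFE2 and MAF genes in each. Of all genes, 3.17% were called lower in TCR-stimulated, 1.86% in Ccl5 and 1.53% in effector cells. Relative to the median gene, Nfe2l2 was also called lower in TCR-stimulated cells, at -0.76. Mafg was called higher in Ccl5 cells, at 0.99, where 8.05% of all genes were. These 3′ counts need not fall in the deleted part of Bach2 and check no deletion. Its CPM ranged from 18.7 to 36.7 over the sets, and no set was given a genotype from it.

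Of 6 tested relatives of the members (FOS, BATF, ATF and JDP genes), Crem, which codes for a cAMP-responsive factor, was called higher in TCR-stimulated cells (50.1 against 15.7 CPM, log2 ratio 1.68, 1.21 to 2.16) and in Ccl5 cells (1.23). In effector cells none of the 6 was called. Of 20 tested genes of the kinase cascades upstream of AP-1, 5 were called higher and none lower in TCR-stimulated cells (11% and 3.17% of all genes), with a median of 0.20, and 3 were higher relative to the median gene. They were the phosphatase genes Dusp4 (1.43), Dusp1 (1.29) and Dusp2 (0.72) and the kinase genes Map2k3 (1.29) and Map3k8 (1.0). Dusp1, which codes for a phosphatase that switches off MAP kinases, was also called in effector (0.74) and Ccl5 cells (1.08). Against resting cells, 5 of 20 genes of this list were called higher in effector cells, where 8.82% of all genes were, and 0 of 20 relative to the median gene, Dusp1 included. In Ccl5 cells 3 of 18 were, beside 8.05% of all genes, and 1, Dusp1, relative to the median gene. None was called lower. Of the partners, 3 of 12 were higher in effector cells (Cebpb at 1.30, Runx3 at 1.14 and Nfatc1 at 0.63), beside 8.82% of all genes, and Nfatc1 was not called there relative to the median gene. In Ccl5 cells 2 of 12 were (Cebpb at 1.78 and Nfatc1 at 0.90), beside 8.05% of all genes.

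Of 13 other immediate early genes tested outside the state markers, 7 were called higher and 2 lower in TCR-stimulated cells, with a median of 0.62. Over all genes 11% were called higher and 3.17% lower, and relative to the median gene 5 of the 13 were higher and 2 lower. Gadd45b (2.41), Nfkbia (1.60), Ier5 (1.28), Egr1 (1.07) and Zfp36l1 (1.06) led those higher, and Socs3 (-2.0) and Klf6 (-0.84) were lower. Egr1 was at 61.5 CPM against 29.3 CPM in resting cells, beside 44.7 against 47.5 CPM for Fos. Of 9 tested heat shock genes, 4 were called higher (Hsph1 at 1.45, Hspd1 at 0.87, Hsp90ab1 and Hsp90aa1 at 0.85), beside 11% of all genes, and 3 relative to the median gene. Their part in the AP-1 values was not tested beyond this. Without cells holding 2 or more of Hspa1a, Hspa1b, Dnajb1 and Hsph1, the ratio of Batf was 2.42 and that of Junb 1.12.

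Cells were also split by a UMI of a single gene, a description chosen after the values above were seen. In the 215 thinned cells with a UMI of Nr4a1, an immediate early gene tied to TCR signalling, Fos was at 81.7 CPM against 47.3 CPM without it (log2 ratio 0.79, 0.34 to 1.21), Fosb at 17.4 against 7.14 CPM (1.28, 0.20 to 2.20) and Junb at 673 against 436 CPM (0.63, 0.48 to 0.77). These 3 were called higher, where 5.66% of genes were, and Jun had a ratio of -0.69 (-1.16 to -0.26), lower in 5 of 6 sets. The 0.5 UMIs added in each set raise the ratio of a rare gene in a small group, in this split and those below. Fosl2, at 3.48 CPM with and 3.38 CPM without an Nr4a1 UMI, was thus higher in 6 of 6 sets. Set directions of rare genes such as Fosb therefore carry little weight here, and the 5.66% holds such genes too. In the 341 cells with an Egr1 UMI no member was called (2.88% of genes were), and Fos was higher in 6 of 6 sets at 0.52 (0.09 to 0.91), as were 7.55% of genes. In the 273 cells with a Bach2 UMI none was called (2.83% of genes were higher). Junb was at -0.34 (-0.52 to -0.15) and lower in 6 of 6 sets, as were 1.16% of genes, and Batf at -0.54 (-0.92 to -0.18) and lower in 5 of 6. Few rare genes can be lower in 6 of 6 sets in so few cells, so the 1.16% is no like background for an abundant gene such as Junb. Of the 4 states, resting cells had the most Bach2 and the least Batf and Junb, and the split was not made within a state. In the 951 cells with a UMI of Hspa1a, Hspa1b, Dnajb1 or Hsph1 no member was called (0.918% of genes were higher). Jun, Junb, Jund and Batf lay between -0.05 and 0.07, each with sets on both sides of 0.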

How the data were processed

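Raw UMI counts per gene and cell were deposited by the authors as 1 table, together with a table of natural log values of the counts per 10000 UMIs plus 1 for 10464 of the cells, which the counts gave back within rounding. The submitters' processing notes list mm10 as the build and, as tools, Cell Ranger, HISAT2, cutadapt, FastQC and Seurat; versions, roles and strand setting are not given in the sources used here. The labels also list bulk RNA extraction steps, without saying whether the droplet libraries went through them. No column name names a sample, so the 6 barcode sets have no genotype and the table was treated as 1 sample, with no p-value.

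The filters on cells are as given in the report; in addition, cells with UMIs of 2 or more B cell or 2 or more myeloid markers, or with 10% erythroid UMIs, were left out. No doublet caller was run. Cells were thinned to 1000 UMIs (304 shallower Treg cells had no state). Interferon-high cells had at least 4 UMIs of at least 3 of 12 markers, cycling cells at least 3 UMIs of at least 2. CPM used all UMIs, unthinned. Ratios within a set had 0.5 UMIs added to both groups. This raises the ratio of a rare gene when the first group is much the smaller, as for cycling cells and the splits by a single gene. Likeness used log2(CPM + 10) of genes with at least 1000 UMIs. All 7 members are named; of each list, at most the 5 called genes with the largest ratio each way, and Bach2 and Foxp3. One marker of the resting list entered the count of marker UMIs and is not reported here. The members and lists were chosen with earlier results of these data known. The procedure was tested on simulated data. Python 3.11.15, numpy 2.4.6, pandas 2.3.3, scipy 1.17.1 and matplotlib 3.10.9 were used.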

Additional observations from a re-analysis of the deposited data

Results flagged for a closer look

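Of 56 groups of 6 barcode sets examined for the members (levels and log2 ratios), 2 had a set far from the other 5 by Dixon's criterion at 95%, where chance flags about 1 in 20 groups. The level of Fosl2 in effector cells was 11.7 CPM in set 1, against 1.97 to 5.07 CPM in the others, on 12 UMIs over all sets. The log2 ratio of Batf in Ccl5 against resting cells was 1.74 in set 5, against 1.14 to 1.33 in the others, and the 6 sets had the same direction.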

How the results depend on the processing

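Of 108 values of the count of called members under the alternatives (18 for each of the 6 comparisons), 103 were within 1.5 times the main count. With states cut from cells thinned to 500 UMIs, 1 member in place of 3 was called in effector against resting cells, 2 in place of 1 in TCR-stimulated against effector cells (Fos lower) and 1 in place of 0 in interferon-high cells (Fosl2 higher). Leaving out each barcode set in turn gave 1 (without set 5) to 3 called members in effector against resting cells and 1 to 2 (without set 2, Jun lower) in TCR-stimulated against effector cells. None of the 10 called ratios of members changed sign, and 20 of the 32 that were not called or not tested did under at least 1 alternative. Among these were Fosb (-0.85 with 500 UMIs, in place of 0.35) and Fosl2 (-0.20 to 0.88) in TCR-stimulated against resting cells. In cycling cells Batf ran from -0.70 to 0.73 and Fos from -0.71 to 1.05, and the count of 2 called members held other genes under 2 alternatives: Batf and Fos, both higher, without the deepest cells and those with UMIs of other lineages (8 cycling cells), and Fosl2 higher in place of Jun in the cells of the authors' log table (29 cycling cells). Batf and Junb were called under 18 of 18 alternatives in TCR-stimulated and in Ccl5 against resting cells, with log2 ratios of 2.01 to 2.55 and 0.93 to 1.21 in the first. Junb in effector against resting cells was called under 14 and Jun in TCR-stimulated against resting cells under 4. Relative to the median gene, 433 genes were higher and 412 lower in TCR-stimulated against resting cells, in place of 800 and 230; in effector cells these numbers were 326 and 255 in place of 665 and 115, in Ccl5 cells 290 and 247 in place of 557 and 129, and in cycling cells 777 and 630 in place of 1303 and 241. The set of alternatives included the cells without shared barcodes, which was chosen after seeing the data. No paired analysis was possible because the cell barcodes carry no sample names, so replicate numbers cannot be assigned. Depth limits Fosb and Fosl2, with 182 and 83 UMIs in all Treg cells.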
